A study of Bos taurus with 6 samples.

Results

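The miRNAs described here are those known best from liver and gut: bta-miR-192 and its near copy bta-miR-215, bta-miR-194 and bta-miR-122. They were taken from the deposited count table by name, with or without an arm suffix. The set was chosen by the level of bta-miR-192, whose mean share over the cows was among the 20 highest of the known miRNAs. The rule names 5 miRNAs, and 4 of them were listed among the 276 known miRNAs and the 779 miRNAs in all, while bta-miR-194b was not listed. The samples were milk extracellular vesicles (EVs), small membrane particles that carry RNA, from 6 Holstein cows in mid lactation. The cows were described for the study as a whole as at 101 ± 10 days in milk, with 574 ± 36 kg body weight and 32 ± 2 kg milk per day, and were housed at 20 °C and 40% humidity. The control diet (3 cows) was a total mixed ration, and in the replacement diet (3 cows) whole cotton seed and soybean hull stood in for part of the alfalfa hay. Each library came from 1 cow, and the age of the cows was not given in the sources used here.

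miRNAs are short RNAs that guide the silencing of messenger RNAs, and bases 2 to 8, the seed, set most of their target choice. The miR-192 family and miR-194 are abundant in the epithelium of liver, intestine and kidney, where transcription factors of hepatocytes and enterocytes drive their precursors, and miR-122 is the dominant miRNA of hepatocytes, with roles in cholesterol and fatty acid metabolism. In blood, miR-122 and miR-192 are followed as markers of liver injury. None of the 4 is a standard marker of the mammary gland.

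The 4 mature sequences are shown because 2 of them are so alike that a read trimmed at both ends could match either. They are given 5′ to 3′ as DNA letters as listed in the count table, with the seed in capitals.
bta-miR-192: cTGACCTAtgaattgacagccag
bta-miR-215: aTGACCTAtgaattgacagaca
bta-miR-194: tGTAACAGcaactccatgtgga
bta-miR-122: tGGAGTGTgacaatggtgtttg
The seed TGACCTA was shared by bta-miR-192 and bta-miR-215, and among 779 listed sequences, predicted ones included, these 2 alone carried it at bases 2 to 8. Counted from 1 at the 5′ end of bta-miR-192, bta-miR-215 differed by C1A and C20A, and bta-miR-192 was longer, at 23 nt against 22 nt. The 2 sequences shared a run of 18 nt without a difference. A read trimmed at both ends could therefore match either miRNA, and how the authors counted such reads is not given in the sources used here. The seeds of bta-miR-194 and bta-miR-122 occurred in 1 listed sequence each, and no listed sequence lay within 2 substitutions of either.

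In the RefSeq gene table of the cow assembly ARS-UCD2.0, MIR192 stands beside MIR194-2 and MIR194B-2. It lies inside the span of EHD1, a gene for a membrane trafficking protein. MIR215 stands beside MIR194-1 and MIR194B, and it lies inside the span of IARS2, the mitochondrial isoleucyl-tRNA synthetase gene. The mature bta-miR-194 thus has a gene copy next to each member of the miR-192 family. MIR122 had no other miRNA gene within 1000 nt. The authors aligned to ARS-UCD1.2, another version of the assembly, so no coordinates are given.

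Per cow, 61156 to 176919 counts fell on known miRNAs, out of 271061 to 556489 counts on all listed miRNAs. Control cow 2 and replacement cow 1 had the most known counts, with 161240 and 176919, against 61156 to 96254 in the other 4 cows. A level is given in 2 ways below, as a share of that cow's known miRNA counts and as RPM, the reads scaled by the authors to a fixed total from library totals that were alike, at 12130660 to 13369168 reads. The erythroid list of 8 miRNAs stood highest in control cow 3, at 20.8% of known counts against 6.71% to 11.4% in the other cows. Confidence intervals of shares and ratios, and the limits for a miRNA without a count, cover counting error only. They treat every read as a separate molecule, which PCR copies of a read are not. The intervals given for fold changes between diets also include the spread between cows. Whether the cows were sampled on the same day is not given in the labels, and p-values rest on the spread between these 6 milk samples.

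The most abundant of the 4 was bta-miR-192, at 1.06% ± 0.507 (SD, n = 6 cows) of known counts or 74.9 ± 26.0 RPM (SD, n = 6). Its share was 0.884%, 0.484% and 1.48% in control cows 1 to 3 and 0.478%, 1.55% and 1.47% in replacement cows 1 to 3. These shares split the cows within both diets, with control cow 2 and replacement cow 1 lowest. The 95% Wilson interval was 0.447% to 0.511% in replacement cow 1, the lowest, and 1.47% to 1.63% in replacement cow 2, the highest, so counting error was small beside the difference between cows. On the RPM scale the same counts gave 47.6, 62.0 and 72.7 RPM for control cows 1 to 3, followed by 63.2, 122.7 and 81.3 RPM for replacement cows 1 to 3. On this scale the 2 cows with low shares stood between control cows 1 and 3, and replacement cow 2 was the highest on both scales.

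The mean share placed bta-miR-192 at rank 18 of 276, and this rank, which chose it, is given as a description. In single cows its rank was 19, 32 and 18 on the control diet and 31, 15 and 18 on the replacement diet, so it was among the 20 highest in 4 of 6 cows. Just above it were bta-miR-10b with 1.53% ± 0.637 (SD, n = 6) and bta-miR-150, a lymphocyte miRNA, with 1.51% ± 0.447 (SD, n = 6). Just below it were bta-miR-21-5p with 1.03% ± 0.239 (SD, n = 6) and bta-miR-30e-5p with 1.00% ± 0.171 (SD, n = 6), the last inside the limit of 20, and bta-miR-3600 with 0.840% ± 0.304 (SD, n = 6) was the first outside it. The gaps from bta-miR-192 to all of these were within 1 SD of its own share. It was lower than bta-miR-10b in 6 of 6 cows, and it was higher than bta-miR-21-5p in 4 of 6. The rank depended on how cows were averaged, since with counts pooled over cows, which gives more weight to the cows with more known counts, bta-miR-192 was at rank 22, outside the limit of 20, with bta-miR-215 at rank 35 and bta-miR-122 at rank 43.

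**Figure D1:**
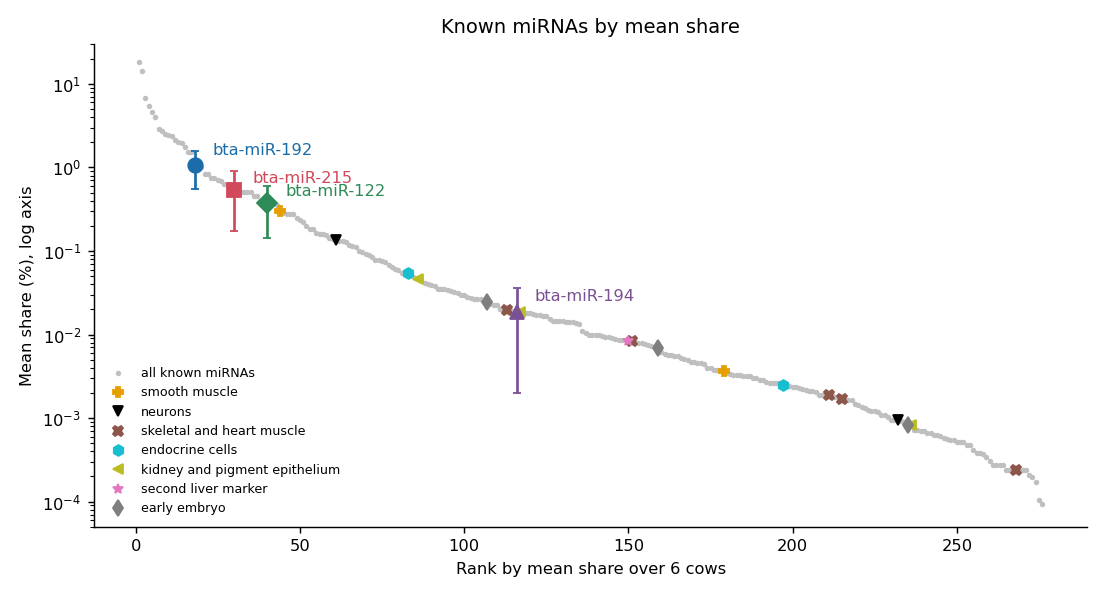
Mean share of known miRNA counts over 6 cows (log axis, %) against rank for all 276 known miRNAs (grey points), with the 4 liver and gut miRNAs as large labelled symbols with SD bars and miRNAs from lists for other tissues as small coloured symbols. The erythroid, leukocyte and mammary lists are not coloured and are part of the grey points, some of them above the 4 miRNAs. bta-miR-192, bta-miR-215 and bta-miR-122 lie at ranks 18, 30 and 40, above every coloured symbol, while bta-miR-194 lies at rank 116 among them.

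The second family member, bta-miR-215, held 0.539% ± 0.364 (SD, n = 6) of known counts, or 37.3 ± 26.0 RPM (SD, n = 6), and reached rank 30. Its share was 0.587%, 0.164% and 0.512% in control cows 1 to 3 and 0.135%, 1.11% and 0.730% in replacement cows 1 to 3. The lowest cows were the same as for bta-miR-192, and replacement cow 2 was again the highest. In RPM it was 31.6, 21.0 and 25.2 on the control diet and 17.9, 87.7 and 40.3 on the replacement diet, so that replacement cow 2 stood well above the other cows on a scale that does not depend on the other known miRNAs. The share varied 8.18-fold from the lowest to the highest cow, and among 84 known miRNAs with at least 10 counts in every cow, 12 varied more. For bta-miR-192 the range was 3.24-fold, near the median of 2.98-fold over these 84 miRNAs. On the RPM scale the order of spread was kept, at 4.91-fold for bta-miR-215 and 2.58-fold for bta-miR-192, against a median of 4.29-fold.

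The hepatocyte miRNA bta-miR-122 was counted in every cow, with at least 178 counts, and held 0.373% ± 0.229 (SD, n = 6) of known counts or 25.4 ± 9.70 RPM (SD, n = 6). Its share was 0.472%, 0.110% and 0.404% in control cows 1 to 3 and 0.226%, 0.265% and 0.760% in replacement cows 1 to 3. The highest cow was replacement cow 3, not replacement cow 2, in which bta-miR-192 and bta-miR-215 were highest. In RPM it was 25.4, 14.1 and 19.9 on the control diet and 29.9, 21.0 and 41.9 on the replacement diet. Its share ranged 6.88-fold over cows, while its RPM ranged 2.97-fold. It ranked 40 by mean share, between 24 and 66 in single cows.

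The level of bta-miR-194 was far below that of the other 3 members, although a copy of its gene stands beside each of the 2 genes of the miR-192 family. It had 10, 25 and 12 counts in control cows 1 to 3 and 23, 0 and 35 counts in replacement cows 1 to 3. As a share this was 0.0142%, 0.0155% and 0.0196% on the control diet and 0.0130%, 0 and 0.0503% on the replacement diet. The cow without a count was replacement cow 2, the cow with the most bta-miR-192 and bta-miR-215, and a count of 0 there allows a share of up to 0.00312%. Over all cows bta-miR-194 held 0.0188% ± 0.0168 (SD, n = 6), at rank 116.

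The order of levels was bta-miR-192, then bta-miR-215, then bta-miR-122, then bta-miR-194. In 6 of 6 cows bta-miR-192 was above each of the others, and bta-miR-194 was below each of the others in 6 of 6. The neighbours bta-miR-215 and bta-miR-122 did not differ beyond their spread, with a gap of 0.166 percentage points and bta-miR-215 above bta-miR-122 in 4 of 6 cows. Levels of different miRNAs were compared per read counted, without a correction for how well each sequence enters a library.

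**Figure D2:**
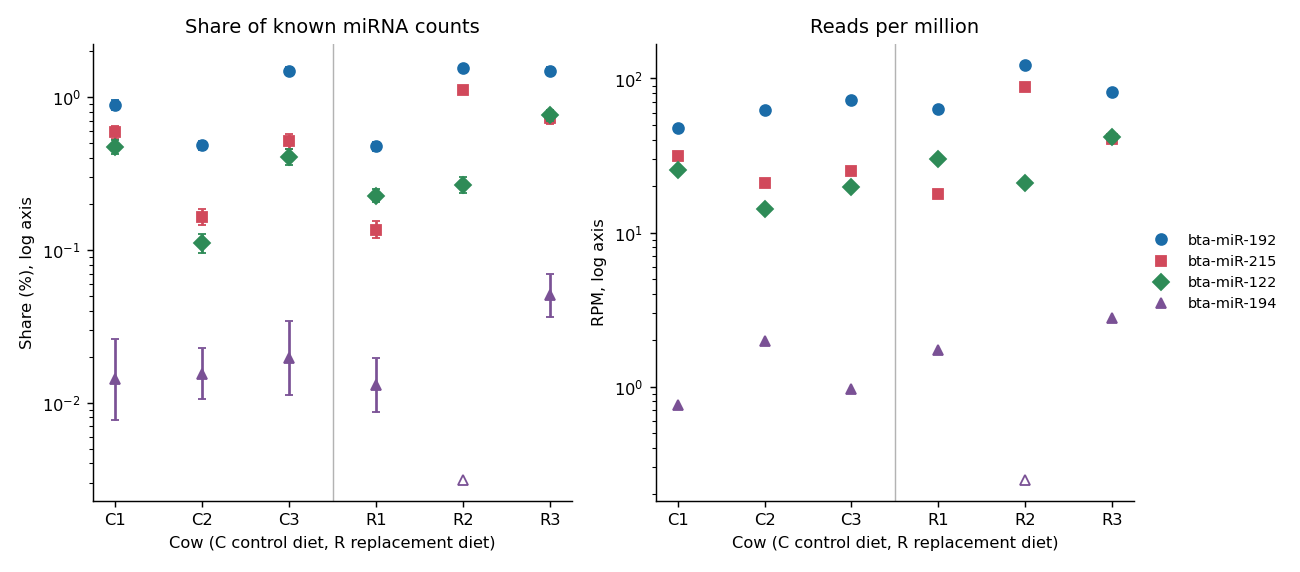
Levels of the 4 miRNAs in each cow as share of known miRNA counts (left, %, log axis, bars are 95% Wilson intervals) and as RPM (right, log axis), with control cows C1 to C3 and replacement cows R1 to R3. The open triangle in R2 marks the limit that 3 counts set for bta-miR-194, which had no count there. C2 and R1 are lowest for bta-miR-192 and bta-miR-215 as shares, whereas in RPM R2 stands apart at 122.7 and 87.7 RPM.

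Ratios within a library do not depend on the total chosen, and they differed from cow to cow. For every 100 counts of bta-miR-192 there were 66.5, 33.8 and 34.6 counts of bta-miR-215 in control cows 1 to 3 and 28.3, 71.5 and 49.6 in replacement cows 1 to 3. The 95% intervals of the lowest cow (24.5 to 32.6) and the highest cow (66.1 to 77.3) did not overlap, and both cows ate the replacement diet. The ratio ranged 2.53-fold over cows. These intervals cover counting error only, and with 1 library per cow the spread between libraries of the same cow was not measured. By diet, the mean ratio was 45.0 ± 18.6 (SD, n = 3) for control and 49.8 ± 21.6 (SD, n = 3) for replacement cows, with p = 0.9 in a two-sided exact permutation test, which cannot give less than 0.1 with 3 cows a diet.

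For bta-miR-122 the ratio per 100 counts of bta-miR-192 was 53.5, 22.8 and 27.3 in control cows 1 to 3, and 47.3, 17.1 and 51.6 in replacement cows 1 to 3. The ratio ranged 3.12-fold, and the diets overlapped, with a mean of 34.5 ± 16.5 (SD, n = 3) for control and 38.7 ± 18.8 (SD, n = 3) for replacement cows (two-sided exact permutation test, p = 1). For bta-miR-194 the ratio was 1.61, 3.21 and 1.33 in control cows 1 to 3, and 2.72, 0 and 3.41 in replacement cows 1 to 3. The 0 in replacement cow 2 came against 1489 counts of bta-miR-192 and allows a ratio of up to 0.201 per 100, below the lower end of the 95% interval of each of the other 5 cows, of which the lowest was 0.757.

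**Figure D3:**
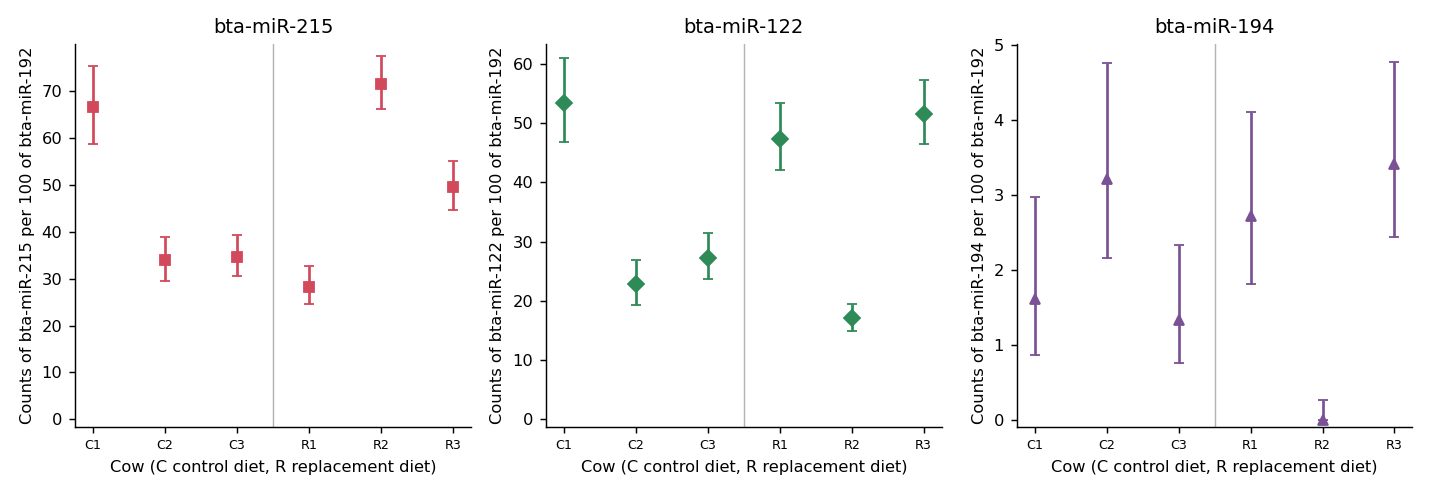
Counts of bta-miR-215, bta-miR-122 and bta-miR-194 per 100 counts of bta-miR-192 in the same library, for control cows C1 to C3 and replacement cows R1 to R3, with bars for 95% intervals derived from the Wilson interval of the share. The ratios of bta-miR-215 lie between 28.3 and 71.5 and those of bta-miR-122 between 17.1 and 53.5, with both diets spread over these ranges, and R2 has no count of bta-miR-194.

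Across the 6 cows, bta-miR-192 and bta-miR-215 had a positive correlation as shares and as RPM. The correlations of bta-miR-122 with both others depended on the scale and on which cows were included. On log2 shares the correlation of bta-miR-192 with bta-miR-215 was r = 0.93 (exact permutation p = 0.0194, Benjamini-Hochberg adjusted over 3 pairs p = 0.0583, n = 6 cows) and rho = 0.829 (exact permutation p = 0.0583, adjusted p = 0.175). Without control cow 2 and replacement cow 1, the cows farthest from the median of bta-miR-192, r fell to 0.419 over 4 cows, so the relation on shares rested on these 2 cows. In RPM, r was 0.772 (exact permutation p = 0.0903, adjusted p = 0.271), and without control cow 1 and replacement cow 2, the farthest ones there, it was 0.944 over 4 cows. With cows centred on their diet mean, log2 shares gave r = 0.928 (exact permutation, adjusted p = 0.075). Neither of these passed an adjusted p under 0.05 with all 6 cows, whereas log2 shares passed without control cow 3, the cow with the high erythroid sum (r = 0.97, exact permutation, adjusted p = 0.025 over 5 cows) and with known and predicted miRNAs as the total (r = 0.922, exact permutation, adjusted p = 0.025). The 2 miRNAs share 18 nt, and whether reads counted for both contribute to this correlation was not tested.

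For bta-miR-192 and bta-miR-122, log2 shares gave r = 0.705 (exact permutation p = 0.122, adjusted p = 0.16) and rho = 0.429 (exact permutation p = 0.419, adjusted p = 0.419). Without control cow 2 and replacement cow 1 it was r = -0.17 over 4 cows, and in RPM it was r = 0.0361 (exact permutation p = 0.951) with all cows and r = 0.654 over 4 cows without control cow 1 and replacement cow 2. For bta-miR-215 and bta-miR-122, r was 0.661 on log2 shares (exact permutation p = 0.16, adjusted p = 0.16) with rho = 0.6 (exact permutation p = 0.242, adjusted p = 0.363). Leaving out the same 2 cows gave r = -0.444 over 4 cows, and RPM gave r = 0.125 (exact permutation p = 0.794) with all cows and r = 0.993 over the 4 cows without replacement cows 1 and 2. Leaving out the 2 farthest cows thus lowered both correlations of bta-miR-122 on shares and raised both in RPM. Control cow 2 and replacement cow 1 were also the 2 cows with the most known counts, the total that every share is divided by. Since bta-miR-194 was not counted in every cow, it was given no correlation.

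**Figure D4:**
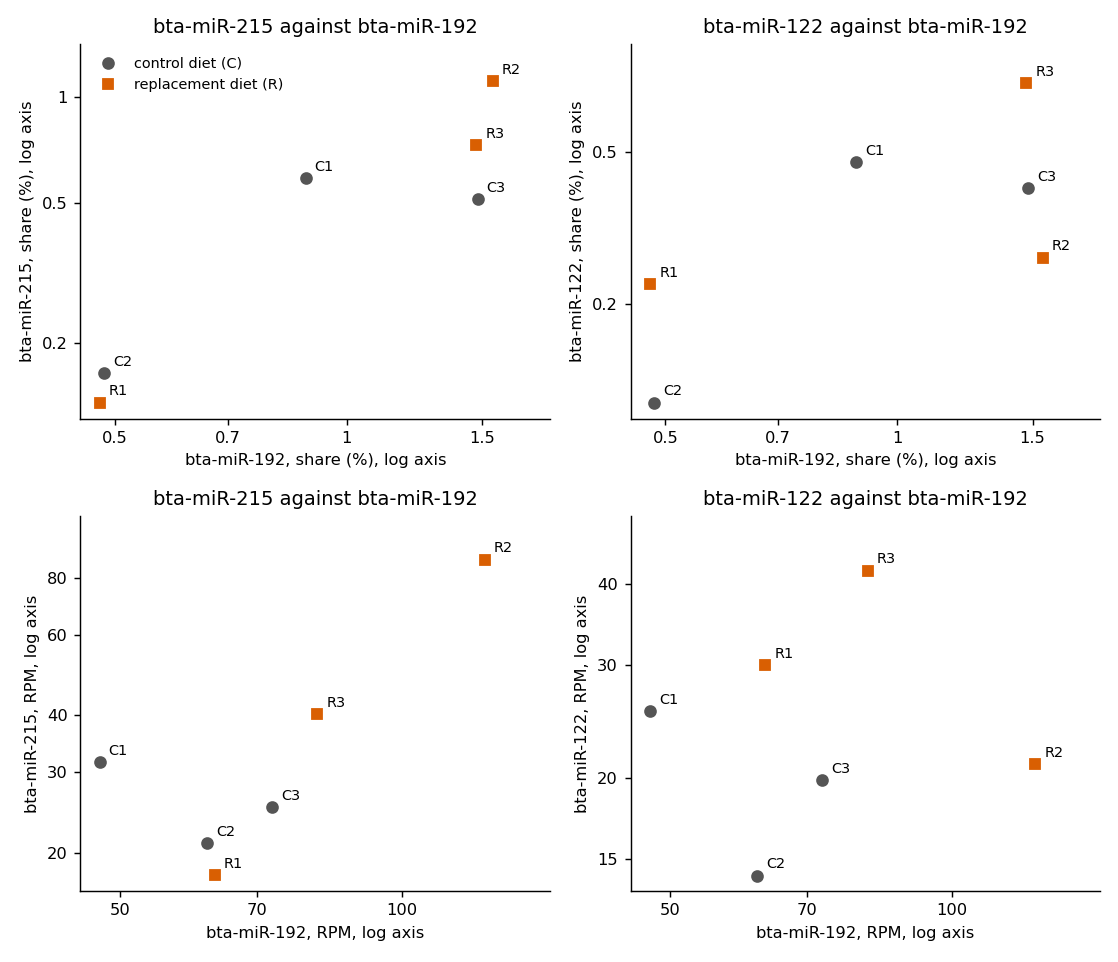
bta-miR-215 (left) and bta-miR-122 (right) against bta-miR-192 in the 6 cows, as shares in % (top) and as RPM (bottom), all axes logarithmic, circles for the control diet (C1 to C3) and squares for the replacement diet (R1 to R3). On shares C2 and R1 sit at the lower left for both pairs, with r = 0.93 and r = 0.705, whereas in RPM the pairs have r = 0.772 and r = 0.0361, the latter 0.654 without C1 and R2.

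The known miRNAs whose log2 share was most like that of bta-miR-192 over the 6 cows were bta-miR-125b (r = 0.934), bta-miR-215 (r = 0.93), bta-let-7b (r = 0.866), bta-miR-3432a (r = 0.861) and the erythroid bta-miR-486 (r = 0.857), among 83 others with at least 10 counts in every cow. In this order bta-miR-122 was at place 13. In RPM, bta-miR-215 was the most alike, followed by bta-miR-93 (r = 0.683), bta-miR-27a-3p (r = 0.645), bta-miR-3432a (r = 0.531) and bta-miR-146b (r = 0.515), and bta-miR-122 fell to place 35. These likenesses are descriptions over 6 cows that share their libraries and totals. Of the 5 miRNAs nearest to bta-miR-192, bta-miR-215 and bta-miR-3432a were named on both scales.

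No diet difference in these miRNAs was found beyond the spread between cows. The test was the quasi-likelihood test of edgeR with adjustment by Benjamini-Hochberg. Fitted over 227 known and predicted miRNAs that passed the filter on low counts, all 4 members were tested, and 0 of 4 passed an adjusted p under 0.05, against 0% of all miRNAs tested. At an unadjusted p under 0.05 the counts were 0 of 4 members and 8 of 227 miRNAs in all (3.52%). With DESeq2, 7 of 767 miRNAs passed an adjusted p under 0.05, none of them a member. The log2 fold change of bta-miR-192, replacement over control, was 0.30 (standard error 0.46, adjusted p = 0.986), with a 95% interval from -0.76 to 1.35, which holds both a fall and a rise. For bta-miR-215 it was 0.63 with an interval from -0.92 to 2.18, for bta-miR-122 it was 0.34 with an interval from -0.97 to 1.66, and for bta-miR-194 it was 0.21 with an interval from -3.28 to 3.69. All 4 estimates were above 0, as were those of 51.5% of the miRNAs tested, and the median over all was 0.03.

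The sign of each estimate depended on 1 cow. Without replacement cow 2 the log2 fold change was -0.01 for bta-miR-192 and -0.08 for bta-miR-215, and without replacement cow 3 it was -0.13 for bta-miR-122 and -0.89 for bta-miR-194. Without control cow 3 it was 0.61 for bta-miR-192, and without control cow 2 it was 0.02 for bta-miR-122. As levels, bta-miR-192 held 60.8 ± 12.6 RPM (SD, n = 3) in control cows against 89.1 ± 30.5 RPM (SD, n = 3) in replacement cows (exact permutation test, two-sided, p = 0.2). The p of the same test on shares was 0.8 for bta-miR-192, 0.5 for bta-miR-215, 0.8 for bta-miR-122 and 1 for bta-miR-194 (two-sided exact permutation tests, 3 cows a diet). The diets overlapped in the shares of all 4 members, while they did not overlap in 6 of the 84 known miRNAs with at least 10 counts in every cow (7.14%). In RPM the diets also overlapped in all 4 members, against 5 of the 84 without overlap (5.95%). The 84 leave out bta-miR-194, which had no count in replacement cow 2.

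**Figure D5:**
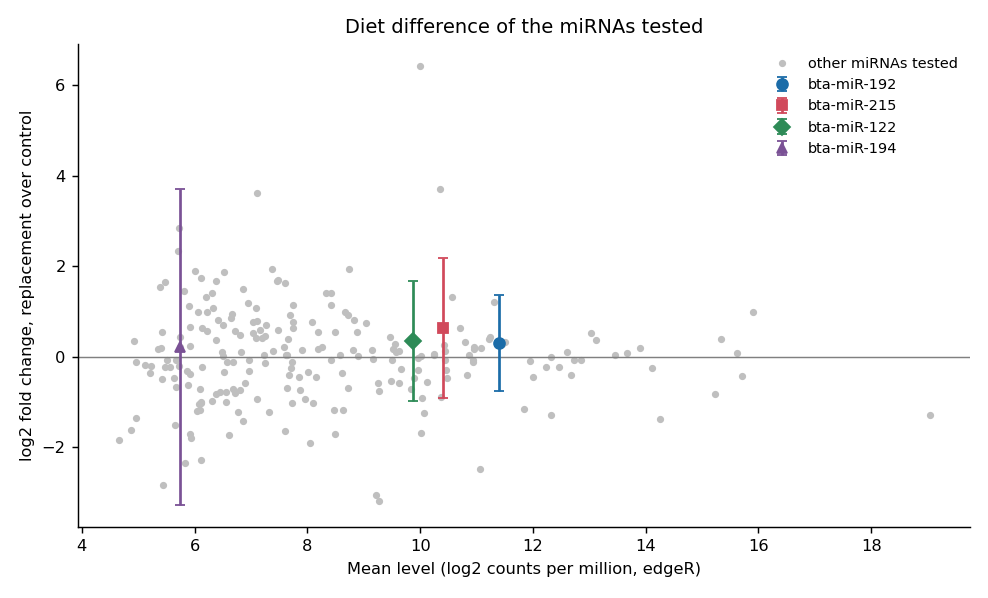
log2 fold change between diets (replacement over control) against mean level (log2 CPM, counts scaled by edgeR) for the 227 miRNAs tested with edgeR, grey points for other miRNAs and coloured symbols with 95% intervals for the 4 members. All 4 intervals include 0, and that of bta-miR-194 is the widest, from -3.28 to 3.69.

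Beside the miRNAs picked for the tissues named next, bta-miR-215 and bta-miR-122 stood high by mean share. The erythroid, leukocyte and mammary lists are left out here. They hold miRNAs above bta-miR-122, such as bta-miR-451 with 2.00%, bta-miR-150 with 1.51% and bta-miR-148a with 0.639%, and others below it. The place of bta-miR-122 thus depends on the choice of lists, made with earlier results of these data known. Of 36 miRNAs listed for muscle, smooth muscle, neurons, endocrine cells, ciliated airway, kidney and pigment epithelium, liver (bta-miR-885) and early embryo, 19 were listed in the table, bta-miR-124a and bta-miR-124b among them as 1 joint entry, and 5 were counted in every cow. None of these had a mean share above that of bta-miR-122, and 6 were above bta-miR-194. The nearest was bta-miR-143 of smooth muscle, with 0.300% ± 0.158 (SD, n = 6), a gap to bta-miR-122 that was within the spread between cows. In control cows 2 and 3 and replacement cow 2, bta-miR-143 was above bta-miR-122, and in the other cows it was below. It was above bta-miR-215 in control cows 2 and 3 alone. Next by mean share was bta-miR-128 of neurons, with 0.137% ± 0.0397 (SD, n = 6). The endocrine bta-miR-375 held 0.0548% ± 0.0466 (SD, n = 6). The muscle miRNA bta-miR-1 had 0 to 31 counts per cow, and the joint entry of bta-miR-124a and bta-miR-124b had 10 counts in replacement cow 1 and none in the other cows. The 5 ciliated airway miRNAs and the other 7 of 10 neuronal ones were not listed. The second liver miRNA, bta-miR-885, had 14 counts in control cow 1, 49 in control cow 2 and none in the other 4 cows, so it did not follow bta-miR-122, which was lowest in control cow 2.

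The summed share of the 4 liver and gut miRNAs was 1.96%, 0.773% and 2.41% in control cows 1 to 3 and 0.852%, 2.92% and 3.01% in replacement cows 1 to 3. Without bta-miR-192, whose level chose the set, the other 3 summed to 0.290% to 1.54%. The 10 listed mammary epithelium miRNAs summed to 0.828% to 1.10% on the control diet and 0.411% to 0.843% on the replacement diet, and the sum of the 3 miRNAs was above that in 2 of 6 cows, replacement cows 2 and 3. Of the mammary list, bta-miR-148a made up most, with 0.639% ± 0.192 (SD, n = 6), and bta-miR-200b had at most 1 count in a cow. The erythroid sum was 7.58% to 20.8% on the control diet and 6.71% to 11.4% on the replacement diet, with 6 of its 8 miRNAs counted in every cow. The leukocyte sum was 2.85% to 3.68% on the control diet and 2.49% to 3.73% on the replacement diet.

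The share of bta-miR-192 had r = 0.626 with the erythroid sum (rho = 0.6, exact permutation p = 0.157 for r and 0.242 for rho, n = 6 cows), r = 0.261 with the leukocyte sum (rho = 0.143, exact permutation p = 0.66 and 0.803) and r = -0.402 with the mammary sum (rho = -0.371, exact permutation p = 0.414 and 0.497). The smallest adjusted p over these 3 relations was 0.471. Without control cow 2 and replacement cow 1, r was 0.189 for the erythroid, 0.413 for the leukocyte and -0.706 for the mammary sum over 4 cows. Without control cow 3, the cow with the high erythroid sum, r was 0.716 for the erythroid, 0.139 for the leukocyte and -0.662 for the mammary sum over 5 cows. In RPM, r with the erythroid sum was -0.0525 and with the leukocyte sum -0.175, so the sign of both depended on the scale, while r with the mammary sum was -0.582 (rho = -0.771, exact permutation p = 0.222 for r and 0.103 for rho). In RPM without control cow 1 and replacement cow 2, r was -0.682 for the erythroid and -0.815 for the leukocyte sum. For the mammary sum it was -0.958 over the same 4 cows. The part of blood cells or mammary cells in the levels of these miRNAs was not tested. In milk EVs, more vesicles that hold a miRNA and more copies per vesicle cannot be told apart.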

How the data were processed

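Small RNA of milk EVs was sequenced in 6 cows, 3 per diet, and diets and cow numbers were read from the sample titles. According to the methods and the processing notes, the authors trimmed reads with Cutadapt 1.14, controlled quality, aligned to the cow genome (ARS-UCD1.2; Bowtie is named), filtered other RNA classes by Rfam and BLAST, and named miRNAs from miRBase or, where unannotated, from miRDeep2 predictions. Deposited by the authors were whole-number counts per mature miRNA and the same counts scaled to RPM under the name TPM, with 1 factor per cow and no length term. How strand and reads matching several miRNAs were handled is not given in the sources used here. A table of the authors' own diet comparison (fold changes and p-values) was not used.

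The study's methods state no test between diets. Counts were tested with edgeR 4.0.16 (TMM, default low-count filter, quasi-likelihood, Benjamini-Hochberg over all miRNAs tested) under R 4.3.3. The alternatives were limma 3.58.1 and DESeq2 1.42.0. The standard error is the log2 fold change divided by the root of F. Single values and correlations used exact permutation tests in Python 3.11.15 with scipy 1.17.1. Shares use the counts of all known miRNAs, 61156 to 176919 per cow, intervals are 95% Wilson, and 3 counts set the limit of a count of 0. Cow pairs of a diet differed beyond sampling noise (chi-square per degree of freedom 63.2 to 223).

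The members and lists were chosen with earlier results of these data known. Named miRNAs were the members, list members, neighbours in rank, the 5 most alike and seed or near-sequence relatives. Alternatives were other normalizations, filters, tools and totals, the cow number as a block, diet-centred correlations and each cow left out. The RPM scale for correlations and the ranks by pooled counts were chosen after seeing the data.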

Additional observations from a re-analysis of the deposited data

Results flagged for a closer look

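Over the 6 cows of both diets, 17 sets of values were checked for a cow far from the other 5, and 2 had one. The check is set to flag about 5% of sets by chance. The sets share cows and counts, so the number flagged cannot be weighed against that rate. The RPM of bta-miR-215 was 87.7 in replacement cow 2, against 17.9 to 40.3 in the other cows. The erythroid list held 20.8% of known counts in control cow 3, against 6.71% to 11.4% in the others. Groups of 3 cows were not checked on their own.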

How the results depend on the processing

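Of all alternative values, 121 kept the direction and the side of the threshold and 16 did not. This tally does not measure how far a value moved. For bta-miR-192 with bta-miR-122, r went from 0.705 on log2 shares to 0.0361 in RPM and was counted as kept. The number of miRNAs past an adjusted p under 0.05 between diets was 0 with edgeR, 7 with DESeq2 and 15 without a filter on low counts, and 0 to 1 with a cow left out. No member passed in any of these settings. The log2 fold changes with a cow left out ran from -0.0129 to 0.61 for bta-miR-192, -0.0759 to 1.04 for bta-miR-215, -0.13 to 0.71 for bta-miR-122 and -0.89 to 0.77 for bta-miR-194, and over all settings the lowest adjusted p of a member was 0.508 (bta-miR-215, no filter). For bta-miR-194, which rests on 0 to 35 counts, limma voom gave -1.23 and the cow number as a replicate block gave -0.62, and the cause was not tested. The block left 0 miRNAs past the threshold and kept the sign of the other 3 members. The labels link cows of the same number by that number alone. Their deviations from the diet means correlated by -0.11, -0.158 and 0.177. With 3 cows a diet, these values cannot show whether such cows shared a day or a batch. Scaling without TMM used the summed counts of the miRNAs tested in each cow, not the library totals behind RPM. This moved the median log2 fold change of all miRNAs from 0.03 to 0.63. It gave 1.01 for bta-miR-192, 1.33 for bta-miR-215, 0.98 for bta-miR-122 and 0.80 for bta-miR-194. The mean share of bta-miR-192 was 0.281% with known and predicted miRNAs as the total, by the larger total, and 0.959% to 1.17% with a cow left out. The correlation of bta-miR-192 with bta-miR-215 passed an adjusted p under 0.05 in exact permutation tests with known and predicted miRNAs as the total (r = 0.922, adjusted p = 0.025) and without control cow 3 (r = 0.97, adjusted p = 0.025), and r was 0.89 to 0.97 with a cow left out. Against the erythroid sum r was -0.0525 in RPM, and against the leukocyte sum it was -0.175 in RPM and -0.14 to 0.69 with a cow left out. Against the mammary sum it was -0.582 in RPM and -0.662 to -0.0475 with a cow left out. Depth limits bta-miR-194 most, while the other members had at least 178 counts in each cow.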
